A study of Malus domestica with 18 samples.

Results

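Apple shoot explants that had spent 4 weeks on thidiazuron (TDZ) were compared with explants that had spent the same time on 6-benzylaminopurine riboside (BAR), both at 4.5 µM. The libraries were taken by their labels, 3 labelled TDZ and 3 labelled BAR at 4 week, which makes 6 of the 18 libraries of the series. The plant was the cultivar Húsvéti rozmaring (Malus domestica), grown in vitro, and the labelled tissue was the axillary shoot. All groups, controls included, had passed their last subculture without cytokinin before shoots were cut into 20 mm segments, and all media held 0.49 µM indole butyric acid (an auxin) and 0.58 µM gibberellic acid. The control medium had no cytokinin, and control libraries of 4 week and TDZ and BAR libraries of 48 hour are used here only as references. The replicates are labelled biological, nothing states that each came from its own culture, and vessels held several explants, so the p-values measure only the spread between these samples. This is 1 pair of compounds at 1 matched dose. TDZ is a synthetic phenylurea, whereas BAR is an adenine-type cytokinin with an aromatic side chain and a ribose attached.

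Cytokinins drive cell division and the outgrowth of axillary buds, and delay the loss of chlorophyll. They bind histidine kinase receptors, from which phosphate passes over phosphotransfer proteins to type-B response regulators, the transcription factors of the pathway. These switch on type-A response regulators, which dampen the signal, and cytokinin oxidases (also called cytokinin dehydrogenases, CKX). The oxidases cleave the side chain of some adenine-type cytokinins, mainly those whose side chain is not aromatic. Breakdown of TDZ or BAR was not measured here. Ribosides are regarded as transport forms that are converted to the free base, while phenylureas such as TDZ are poor substrates of cytokinin oxidases. In tissue culture TDZ is known for strong and lasting shoot induction.

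The library labelled TDZ replicate 3 stood apart from the other TDZ libraries and lay with the controls of the same time. On the first principal component of the 4 week libraries, which held 61.1% of the variance, TDZ replicates 1 and 2 scored 155 and 158, the BAR libraries scored from 75.1 to 81.4, and the controls scored from -174 to -85.0. The library labelled TDZ replicate 3 scored -119. Its Spearman correlation with TDZ replicates 1 and 2 was 0.807 and 0.803, while replicates 1 and 2 correlated at 0.974 and the BAR libraries among themselves at 0.975 to 0.988. BAR replicates 1 and 3 were the closest BAR pair (chi-square 16.7 per degree of freedom, against 41.3 and 45.7 for the other pairs). Their library names differ only by a letter b, as do those of TDZ replicates 1 and 3. The BAR pair differed by more than counting noise, which does not show whether the material was separate. They were kept as separate samples, as labelled. The 6 libraries held 16270091 to 18835003 counts. The leaf genes fixed as markers were abundant, with summed levels from 4880 to 16900 CPM (counts of a gene scaled to a fixed library size), so the tissue carried leaf transcripts as a shoot does. Counts are therefore given for 3 TDZ libraries against 3 BAR libraries (the 6-library comparison) and without the library labelled TDZ replicate 3 (the 5-library comparison). At 4 week, a gene printed with the adjusted p of only 1 comparison was called in both. In bulk RNA, fewer cells of a type and less RNA per cell cannot be told apart.

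**Figure D1:**
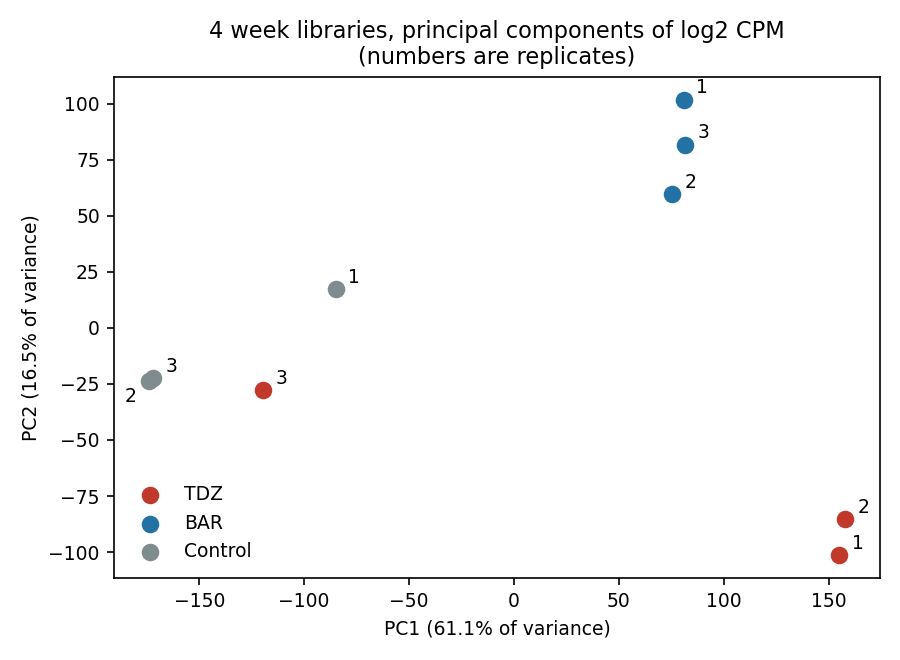
Scores of the 9 libraries of 4 week on the first and second principal components of log2 CPM, coloured by medium, with replicate numbers beside the points. TDZ replicates 1 and 2 lie at 155 and 158 on the first component, the BAR libraries near 80.9, and the library labelled TDZ replicate 3 at -119, between the controls.

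Genes were tested with edgeR's quasi-likelihood test, and a gene was called at a Benjamini-Hochberg adjusted p under 0.05. In the 6-library comparison 2189 of 26053 genes were called (8.4%), of which 1152 were higher (4.42%) and 1037 lower (3.98%) on TDZ than on BAR. These calls rest on a spread estimated from all 18 libraries. The 9 libraries of 4 week fitted by themselves gave 62 higher and 94 lower, and the 6 libraries alone gave 0 and 0, with 4594 genes at an unadjusted p under 0.05. In the 5-library comparison 4114 of 26635 genes were called (15.4%), 2257 of them higher (8.47%) and 1857 lower (6.97%) on TDZ. The 2 comparisons share their BAR libraries and TDZ replicates 1 and 2, and 941 higher and 924 lower calls were common to both. Those made up 81.7% of the higher and 89.1% of the lower calls of the 6 libraries, and 41.7% and 49.8% of those of the 5 libraries. Differences above were larger than differences below. Higher calls had a median log2 difference of 2.57 and lower calls of -1.24 in the 5 libraries, and 927 higher but 70 lower calls reached 8-fold. With 6 libraries the medians were 3.09 and -1.3, and 589 higher and 30 lower calls reached 8-fold. The median over all genes tested was 0.039 with 6 libraries and -0.031 with 5.

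The doubted library lay on the side of the other TDZ libraries more often for lower than for higher calls. Of the 1857 genes lower on TDZ in the 5 libraries, the library labelled TDZ replicate 3 was also below every BAR library for 1189 (64%), whereas it was below every BAR library for 42.3% of all genes tested. Of the 2257 genes higher on TDZ, it was above every BAR library for 712 (31.5%), against 35.2% of all genes tested, and it was below every BAR library for 1050 (46.5%). The calls were chosen with the same BAR libraries, so these shares do not show whether it resembled the other TDZ libraries. Where the controls lay for these genes was not counted. Among the calls of the 6-library comparison, groups did not overlap for 691 of the 1152 higher and for 1022 of the 1037 lower genes, where 9.94% and 15.3% of all genes tested had non-overlapping groups in that direction. In the 5-library comparison they did not overlap for 2246 higher and 1856 lower calls, against 27.2% and 28.9% of all genes tested. The 6-library counts also rested on single BAR libraries. They fell to 52 higher and 146 lower without BAR replicate 1 and to 144 and 314 without BAR replicate 3. Without BAR replicate 2 they were 709 and 922, without TDZ replicate 1 they were 556 and 433, and without TDZ replicate 2 they were 911 and 595. In the 5-library comparison the counts fell to 1201 higher and 456 lower without TDZ replicate 1, and were 1475 and 626 without TDZ replicate 2 and 1412 and 978 without BAR replicate 1.

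Most feedback genes of the cytokinin pathway were higher on TDZ. Of 12 genes named as type-A response regulators, 10 passed the filter on low counts. In the 5 libraries 9 of these 10 were higher on TDZ and none lower, with a median log2 difference of 3.8, and in the 6 libraries 8 of 10 were higher, with a median of 3.25. The share called was 90% and 80%, against 8.47% and 4.42% of all genes. The 5-library count was 9 without any 1 library, whereas the 6-library count was 0 without BAR replicate 1, 1 without BAR replicate 3, and 4 without BAR replicate 2, TDZ replicate 1 or TDZ replicate 2. ARR6 (DVH24_008781) had 135 and 114 CPM in TDZ replicates 1 and 2 and 1.03 CPM in the library labelled TDZ replicate 3, and 7.34, 10.7 and 9.88 CPM on BAR. TDZ replicates 1 and 2 were thus far above every BAR library, while replicate 3 was below all of them and among the controls, which had 0.182 to 1.11 CPM. The log2 difference was 3.74 ± 0.34 (SE, adjusted p = 3.6e-06, edgeR, 2 against 3) without replicate 3 and 3.16 ± 0.9 (adjusted p = 0.041) with it.

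ARR3 (DVH24_007079) had 136, 85.4 and 5.54 CPM on TDZ and 6.76, 6.22 and 6.02 CPM on BAR. The log2 difference was 4.13 ± 0.4 (adjusted p = 5.8e-06, edgeR, 5 libraries) and 3.58 ± 0.74 with 6 (adjusted p = 0.011). The BAR libraries lay within the range of the controls, 2.78 to 7.25 CPM, so only TDZ replicates 1 and 2 stood out. A second gene named ARR3 (DVH24_040788) had 106, 73.4 and 1.61 CPM on TDZ and 6.58, 6.27 and 5.75 CPM on BAR. ORR4 (DVH24_042790), named after a rice type-A regulator, had 14.3, 18 and 0 CPM on TDZ and 0.233, 0.167 and 0.0537 CPM on BAR, with a log2 difference of 6.69 ± 0.47 (adjusted p = 1.6e-06, edgeR, 5 libraries) and 6.1 ± 1.28 (adjusted p = 0.014, 6 libraries). Again TDZ replicates 1 and 2 were high and every other library of 4 week was near 0. ARR9 (DVH24_019719) was higher in the 5 libraries, with 35.1 and 43.9 CPM on TDZ and 4.78 to 5.53 CPM on BAR (adjusted p = 0.00023), and was not called with replicate 3 at 0.644 CPM included (adjusted p = 0.099). The exception among the 10 was ORR9 (DVH24_015948), with 11.4, 10.5 and 4.44 CPM on TDZ and 7.75, 7.49 and 8.75 CPM on BAR. Its log2 difference had a 95% interval from -0.32 to 1.21 in the 5 libraries and from -0.68 to 0.96 in the 6.

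Some cytokinin oxidases were far higher on TDZ, while others gave no call. Of 11 genes with that name 10 were tested in the 5 libraries, and 5 were higher on TDZ and none lower (50%, median log2 difference 2.74). In the 6 libraries 9 were tested and 5 were higher (55.6%, median 3.81), and 4 genes, named dehydrogenases 1, 3, 5 and 5, were called in both. The 6-library count was 1 without BAR replicate 1, 2 without BAR replicate 3 and 3 without TDZ replicate 1. CKX3 (DVH24_029452) had 212 and 182 CPM in TDZ replicates 1 and 2, 0.0644 CPM in the library labelled TDZ replicate 3, and 0.0583, 0 and 0.161 CPM on BAR. It was at 0 in all 3 controls, so TDZ replicates 1 and 2 carried nearly all its counts at 4 week. The log2 difference was 11.23 ± 0.89 (adjusted p = 3e-06, edgeR, 5 libraries) and 10.65 ± 1.96 (adjusted p = 0.0086, 6 libraries), resting on 4 counts in the BAR group. A CKX5 gene (DVH24_012939) had 20.6, 11 and 0.257 CPM on TDZ and 0.466, 0.278 and 0.215 CPM on BAR, with adjusted p = 9.6e-06 in the 5 and 0.01 in the 6 libraries by edgeR. The other CKX5 gene (DVH24_020176) was high in all 3 TDZ libraries, at 9.04, 10.8 and 8.3 CPM, against 0.233, 0.888 and 0.859 CPM on BAR (log2 difference 3.81 ± 0.63, adjusted p = 0.0045, edgeR, 6 libraries). Its controls, at 4.75 to 12.7 CPM, were on the TDZ side, so this gene was low on BAR alone.

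Other oxidases of similar abundance were not called in either comparison. CKX7 (DVH24_020512) had 30.2, 26.1 and 31.7 CPM on TDZ and 24.3, 38.7 and 21.1 CPM on BAR, and its log2 difference had a 95% interval from -0.67 to 0.68 in the 5 libraries and from -0.55 to 0.68 in the 6. CKX4 (DVH24_018123) had 7.96, 9.49 and 12 CPM on TDZ and 11.2, 11.3 and 11.2 CPM on BAR, with an interval from -1.21 to 0.47.

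Among the genes that receive and pass on the signal a few differed. Of 20 tested receptors, phosphotransfer proteins and type-B regulators, 4 were higher and 1 lower on TDZ in both comparisons (20% higher, against 8.47% and 4.42% of all genes). The 6-library count of higher genes was 0 without BAR replicate 1, 1 without BAR replicate 3 or TDZ replicate 1, and 2 without TDZ replicate 2, while the 5-library count was 4 without any 1 library. The median log2 difference was -0.01 in the 5 and 0.08 in the 6 libraries. The 4 higher genes were both genes named Histidine kinase 4, a cytokinin receptor, and 2 genes named phosphotransfer protein 1. One HK4 gene (DVH24_040279) had 61.4, 55.6 and 1.35 CPM on TDZ and 0.583, 1.55 and 0.967 CPM on BAR. Its log2 difference was 5.8 ± 0.52 (adjusted p = 3.3e-06, edgeR, 5 libraries) and 5.24 ± 0.97 (adjusted p = 0.0074, 6 libraries). The other HK4 gene (DVH24_007629) had 106, 81.2 and 0.193 CPM on TDZ and 4.66, 5.38 and 5.48 CPM on BAR. Both were high in TDZ replicates 1 and 2 and under 0.7 CPM in the controls. A phosphotransfer protein 1 gene (DVH24_015255) had 211, 194 and 3.28 CPM on TDZ and 3.73, 23.4 and 4.08 CPM on BAR. The lower gene was the type-B regulator ARR1 (DVH24_025434), with 94, 106 and 56.2 CPM on TDZ and 260, 212 and 169 CPM on BAR, where no TDZ library reached the BAR range (adjusted p = 0.02 and 0.016 by edgeR in the 5 and 6 libraries). The controls had 44.2 to 53.3 CPM, so BAR was the highest of the 3 media for ARR1.

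**Figure D2:**
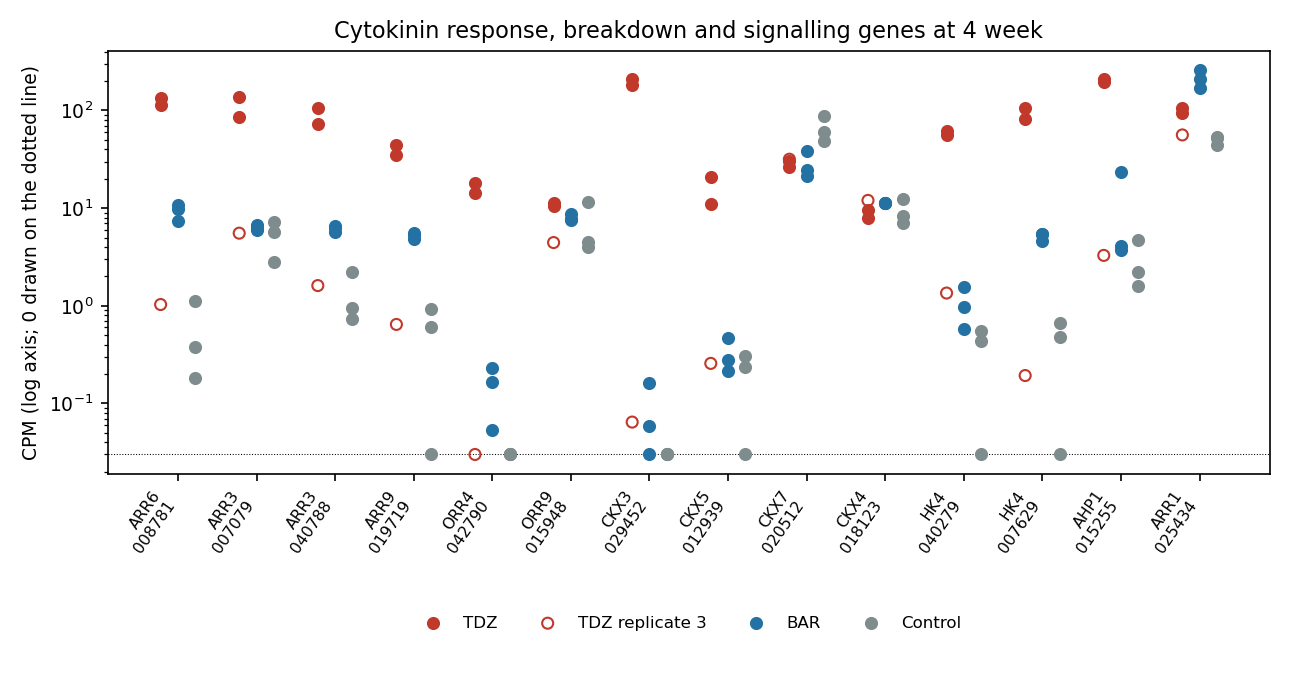
CPM on a log axis of 14 cytokinin genes in each library of 4 week, with TDZ in red (open circle for the library labelled TDZ replicate 3), BAR in blue and control in grey, and values of 0 on the dotted line. For ARR6, CKX3 and both HK4 genes, TDZ replicates 1 and 2 lie above all BAR libraries, while the open circle lies far below them, among the controls for ARR6 and within the BAR range for CKX3. For CKX7 and CKX4, TDZ and BAR overlap.

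Of 25 genes of cytokinin synthesis and interconversion tested in the 5 libraries 4 were higher on TDZ and none lower (16.0% against 8.47% of all genes), and in the 6 libraries 3 of 24 were higher (against 4.42%). The 6-library count was 0 without BAR replicate 1 or 3, 1 without TDZ replicate 1 or 2, and 2 without BAR replicate 2. Adenosine kinase 2 (DVH24_023937), an enzyme that phosphorylates adenosine and, in other plants, cytokinin ribosides, had 118, 93.2 and 48.4 CPM on TDZ and 37.8, 35.9 and 51.2 CPM on BAR. TDZ replicates 1 and 2 lay above BAR and replicate 3 within it, and the log2 difference was 1.34 ± 0.24 (adjusted p = 0.0013, edgeR, 5 libraries) and 1.06 ± 0.29 (adjusted p = 0.033, 6 libraries). Adenine phosphoribosyltransferase 5 (DVH24_012089), of a family that turns free bases into nucleotides, had 74.4, 56.3 and 2.77 CPM on TDZ and 10.3, 7.44 and 9.83 CPM on BAR (adjusted p = 0.0032 in the 5 and 0.098 in the 6 libraries). The 4 cytokinin response factors were called in neither comparison. Genes of cytokinin conjugation and transport were called at about the share of all genes. In the 5 libraries 2 of 20 were higher and 1 lower (10% and 5%, against 8.47% and 6.97% of all genes). In the 6 libraries 1 of 19 was called in each direction (5.26%, against 4.42% and 3.98%). Both of these counts were 0 without BAR replicate 1, BAR replicate 3 or TDZ replicate 1. The higher ones of the 5 libraries included ABCG14 (DVH24_020022), which in Arabidopsis carries root-made cytokinin to the shoot, at 50.9, 61.6 and 2.57 CPM on TDZ and 8.51, 9.55 and 8.27 CPM on BAR (adjusted p = 0.015, edgeR, and 0.16 with 6 libraries).

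Some regulators of the shoot meristem were higher on TDZ, and several of these had next to no counts on BAR. In the 5 libraries 41 of 96 tested genes were higher (42.7% against 8.47% of all genes) and none lower, with a median log2 difference of 1.48. In the 6 libraries 13 of 92 were higher (14.1% against 4.42%) and 1 lower, with a median of 1.13. The 5-library count was 26 without TDZ replicate 2 and from 28 to 35 without any other library. The 6-library count was 0 without BAR replicate 1, 1 without BAR replicate 3, 6 without BAR replicate 2, and 8 without TDZ replicate 1 or 2. SHOOT MERISTEMLESS (DVH24_016931), the homeobox gene that keeps meristem cells undifferentiated, had 20.8 and 35.4 CPM in TDZ replicates 1 and 2, 0 in the library labelled TDZ replicate 3, and 0, 0 and 0.161 CPM on BAR (adjusted p = 0.0035 in the 5 and 0.04 in the 6 libraries by edgeR). The related knotted-1-like gene LET6 (DVH24_011759), named after a tomato gene, had 10.3, 22 and 0 CPM on TDZ and no count on BAR. Its mean on TDZ replicates 1 and 2 was at least 289-fold higher than 3 counts over the BAR group (adjusted p = 0.0061, edgeR, 5 libraries). Neither gene had a count in the controls.

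The same pattern was seen for knotted-1-like 2 (DVH24_012608), with 10.5, 16.9 and 0.129 CPM on TDZ and 0, 0.111 and 0 CPM on BAR. WUSCHEL (DVH24_018512), which maintains stem cells of the shoot tip, was detected only in TDZ replicates 1 and 2, at 1.4 and 1.93 CPM, and passed narrowly in the 5 libraries (adjusted p = 0.047, edgeR) but not in the 6 (adjusted p = 0.12). CUP-SHAPED COTYLEDON 2 (DVH24_003107), which sets organ boundaries, had 7.23, 6 and 0.193 CPM on TDZ and 0.291, 0.278 and 0.0537 CPM on BAR (adjusted p = 0.012 in the 5 and 0.066 in the 6 libraries). Genes of young leaves were in the same list. YABBY 1 (DVH24_014060), a gene of the lower leaf side, had 9.59, 19.6 and 0 CPM on TDZ and 0.757, 0.0555 and 0.269 CPM on BAR, with a log2 difference of 5.33 ± 0.59 (adjusted p = 4.3e-05, edgeR, 5 libraries). Growth-regulating factor 9 (DVH24_026050), of a family that sustains leaf cell proliferation, differed from the other examples in that the groups did not overlap with all 6 libraries, at 7.19, 9.53 and 1.42 CPM on TDZ against 0.466, 0.666 and 0.215 CPM on BAR (adjusted p = 0.0085, edgeR). The gene lower in the 6 libraries was a knotted-1-like 3 (DVH24_012057), at 365, 310 and 151 CPM on TDZ and 611, 517 and 598 CPM on BAR (adjusted p = 0.039, and 0.056 with 5 libraries).

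Cell division genes were higher on TDZ in larger shares than all genes. Of 88 cell cycle genes 31 were higher and 1 lower in the 5 libraries (35.2% higher, median log2 difference 0.75), and 17 of 87 were higher and none lower in the 6 (19.5%). DNA replication genes gave 25 of 71 and 17 of 71, and histones 26 of 61 and 16 of 59, while 3 and 2 histones were lower. Cyclin-A1-1 (DVH24_042818) had 14.3, 16.8 and 0.451 CPM on TDZ and 0.0583, 0.722 and 0.591 CPM on BAR. Its log2 difference was 5.05 ± 0.48 (adjusted p = 5.3e-06, edgeR, 5 libraries) and 4.5 ± 0.89 (adjusted p = 0.0093, 6 libraries). The replication licensing factor MCM5 (DVH24_029019) had 12.8, 19.4 and 0.644 CPM on TDZ and 0.699, 0.944 and 0.752 CPM on BAR. A histone H3.2 gene (DVH24_011472) had 32.4, 41.6 and 1.67 CPM on TDZ and 0.932, 1.94 and 1.4 CPM on BAR, with a log2 difference of 4.69 ± 0.35 (adjusted p = 1.6e-06, edgeR, 5 libraries). For these 3 genes only TDZ replicates 1 and 2 were high, and BAR lay near the controls, which had 0.477 to 2.22 CPM. Ribosomal protein genes did not follow, with 1 of 238 higher and 3 lower in the 5 libraries and none higher and 1 lower in the 6. The 6-library counts of cell cycle, DNA replication and histone genes were 0, 2 and 1 without BAR replicate 1, 2, 5 and 4 without BAR replicate 3, 8, 12 and 8 without TDZ replicate 1 and 8, 9 and 7 without TDZ replicate 2. Without BAR replicate 2 the cell cycle count was 11. In the 5 libraries leaving out any library left at least 23, 20 and 21 higher.

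Most markers of dividing cells were higher on TDZ in the 5 libraries. This list shares members with the cell cycle list, so its calls are partly the same ones. Other marker lists differed in part or not by the test. Of 17 tested marker genes of dividing cells 13 were higher on TDZ in the 5 libraries and 8 in the 6, where the count was 0, 2, 3, 3 and 5 without BAR replicate 1, BAR replicate 3, TDZ replicate 1, TDZ replicate 2 and BAR replicate 2. Their summed level was 240 and 249 CPM in TDZ replicates 1 and 2, 133 CPM in the library labelled TDZ replicate 3, 94.1 to 109 CPM on BAR and 104 to 128 CPM in the controls. Phloem markers summed to 580, 432 and 284 CPM on TDZ and 250 to 276 CPM on BAR, and 9 of 23 were higher in the 5 libraries (4 without TDZ replicate 1) and none higher and 1 lower in the 6. Root markers summed to 63.8, 88.1 and 0.644 CPM on TDZ and 3.66 to 14.4 CPM on BAR. Nearly all of that came from 2 genes named SCARECROW (DVH24_014994 and DVH24_036412), a gene also active in shoots, and the 9 Casparian strip protein genes, which mark the root endodermis, had at most 0.63 CPM on TDZ and 0.555 CPM on BAR. Epidermis markers summed to 1050, 861 and 185 CPM on TDZ and 1050 to 1270 CPM on BAR, and 7 of 29 were higher and 3 lower in the 5 libraries and 3 of 28 higher and 1 lower in the 6. The 7 became 4 without BAR replicate 1 or TDZ replicate 2. Within that list 2 genes named Protodermal factor 1, made by young epidermis, were high on TDZ replicates 1 and 2, one of them (DVH24_027838) at 50.7, 114 and 0 CPM against 3.09, 0.777 and 1.13 CPM on BAR. Xylem and fibre markers, with 1 of 31 higher in the 5 and 1 of 30 in the 6 libraries, summed to 361 to 396 CPM on TDZ and 385 to 434 CPM on BAR. Embryo and seed markers, with 1 of 9 and 0 of 9 higher, summed to 11.5 to 24.7 CPM on TDZ and 12.4 to 16.4 CPM on BAR. The part of cell type shares in the differences was not tested.

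**Figure D3:**
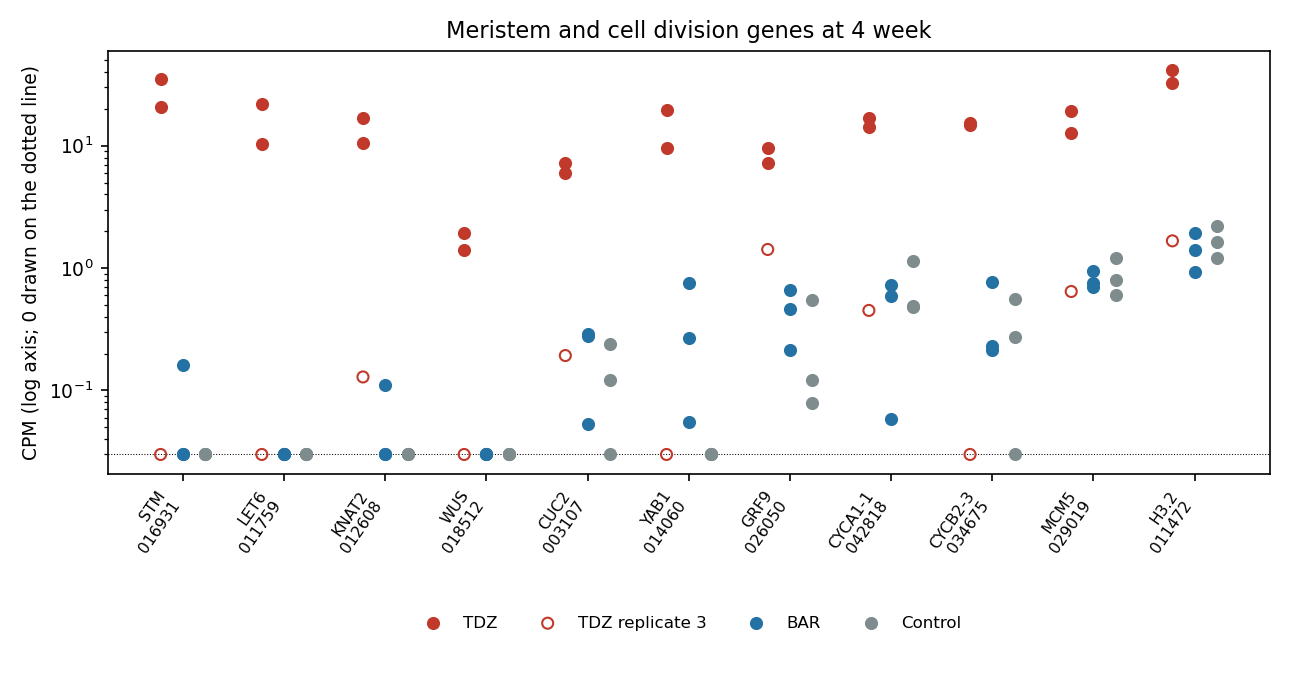
CPM on a log axis of 11 meristem and cell division genes in each library of 4 week, coloured as in the plot of cytokinin genes, with values of 0 on the dotted line. SHOOT MERISTEMLESS (STM), LET6, knotted-1-like 2 (KNAT2) and WUSCHEL (WUS) lie above 1 CPM only in TDZ replicates 1 and 2.

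Most genes of carbon fixation were lower on TDZ than on BAR, and the library labelled TDZ replicate 3 shared this in the examples below. Of 39 tested genes of the Calvin cycle and photorespiration 24 were lower and 2 higher in the 5 libraries (61.5% lower, median log2 difference -1.31), and 25 were lower and 2 higher in the 6 (64.1%, median -1.39), against 6.97% and 3.98% of all genes lower. A Rubisco activase gene (DVH24_032941), whose product keeps Rubisco active, had 753, 743 and 658 CPM on TDZ and 4660, 2660 and 4540 CPM on BAR. The groups did not overlap, and the controls, at 1700 to 2410 CPM, lay between them. The log2 difference was -2.46 ± 0.34 (adjusted p = 0.0021, edgeR, 6 libraries) and -2.4 ± 0.39 (adjusted p = 0.00054, 5 libraries). A gene of the Rubisco small subunit (DVH24_035251) had 310, 319 and 353 CPM on TDZ and 1700, 1040 and 2000 CPM on BAR (log2 difference -2.27 ± 0.46, adjusted p = 0.01, edgeR, 6 libraries). Sedoheptulose-1,7-bisphosphatase (DVH24_022996), a regulated step of the cycle, had 70.5, 75 and 111 CPM on TDZ and 388, 276 and 333 CPM on BAR, giving a log2 difference of -1.96 ± 0.33 (adjusted p = 0.0051, edgeR, 6 libraries). Here too every TDZ library was below every BAR library.

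Chloroplast fructose-1,6-bisphosphatase (DVH24_026637) had 90.3, 81.7 and 66.7 CPM on TDZ and 469, 314 and 416 CPM on BAR, and phosphoribulokinase (DVH24_035615), which makes the acceptor of carbon dioxide, 230, 189 and 136 CPM against 611, 451 and 545 CPM. Photorespiration genes were in the same direction, among them a serine--glyoxylate aminotransferase (DVH24_013156) at 277, 311 and 228 CPM on TDZ and 665, 962 and 541 CPM on BAR (adjusted p = 0.018, edgeR, 6 libraries). Against the direction stood fructose-bisphosphate aldolase 3 (DVH24_040399), at 80.7, 71.6 and 100 CPM on TDZ and 26.2, 35.7 and 31.1 CPM on BAR (adjusted p = 0.016 in both comparisons by edgeR). The count of lower genes was sensitive to single libraries. It was 5 and 7 in the 5 libraries without TDZ replicate 1 or 2 and 15 without BAR replicate 1, and in the 6 libraries it was 6, 10, 14 and 17 without BAR replicate 1, BAR replicate 3, TDZ replicate 1 and TDZ replicate 2.

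Of 69 tested nuclear genes of light harvesting and the photosystems, 18 were lower and 1 higher in the 5 libraries (26.1% lower, median log2 difference -0.79) and 17 lower and 1 higher in the 6 (24.6%, median -0.87). The antenna protein gene CP29.3 (DVH24_022956) had 40.2, 54.3 and 15.1 CPM on TDZ and 178, 106 and 210 CPM on BAR, without overlap (log2 difference -2.17 ± 0.36, adjusted p = 0.0045, edgeR, 6 libraries). Its controls, at 46.8 to 58.3 CPM, lay near TDZ replicates 1 and 2, so BAR was the highest of the 3 media. A gene of the photosystem II 22 kDa protein (DVH24_042775), which protects against excess light, had 138, 156 and 142 CPM on TDZ and 698, 407 and 595 CPM on BAR. The gene in the other direction was a chlorophyll a-b binding protein 3 (DVH24_017451), at 471, 124 and 336 CPM on TDZ and 52.1, 53.2 and 51.1 CPM on BAR, with 507 to 1780 CPM in the controls (adjusted p = 0.014, edgeR, 6 libraries). Of 33 genes of chlorophyll synthesis and breakdown 9 were lower and 1 higher in the 5 libraries, and 7 were lower in the 6 (27.3% and 21.2% lower). Among them was a glutamate-1-semialdehyde aminomutase (DVH24_039836), an early step of chlorophyll synthesis, at 33.6, 30.6 and 35.1 CPM on TDZ and 95.9, 59.8 and 104 CPM on BAR. Chlorophyllide a oxygenase (DVH24_042778) was lower only in TDZ replicates 1 and 2, at 23.4, 21.4 and 50.3 CPM on TDZ and 52.1, 50.8 and 50.2 CPM on BAR. It was called in the 5 libraries (adjusted p = 0.0028, edgeR) and not in the 6 (adjusted p = 0.16). Plastid-encoded genes, as far as names show, were called in neither comparison (0 of 39 and 0 of 37). The libraries held poly(A) RNA, and how well they captured plastid transcripts was not tested, so this does not show that plastid expression was equal. The counts of lower photosystem genes were 3 and 4 in the 5 libraries without TDZ replicate 2 or 1 and 8 and 11 without BAR replicate 1 or 3, and 2, 3, 5 and 8 in the 6 libraries without BAR replicate 1, BAR replicate 3, TDZ replicate 2 and TDZ replicate 1. Those of chlorophyll genes were 3, 4, 6 and 6 in the 5 libraries without TDZ replicate 1, TDZ replicate 2, BAR replicate 1 and BAR replicate 3, and 1 in the 6 libraries without TDZ replicate 1, BAR replicate 1 or BAR replicate 3 and 4 without TDZ replicate 2. The leaf markers, which share members with these lists, summed to 8150, 4880 and 6310 CPM on TDZ, 11200 to 16900 CPM on BAR and 10000 to 25800 CPM in the controls. Of 31 tested, 7 were lower and 1 higher in either comparison, with 1 to 5 lower once TDZ replicate 1, TDZ replicate 2, BAR replicate 1 or BAR replicate 3 was left out. The part of leaf tissue in the photosynthesis results was not tested.

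**Figure D4:**
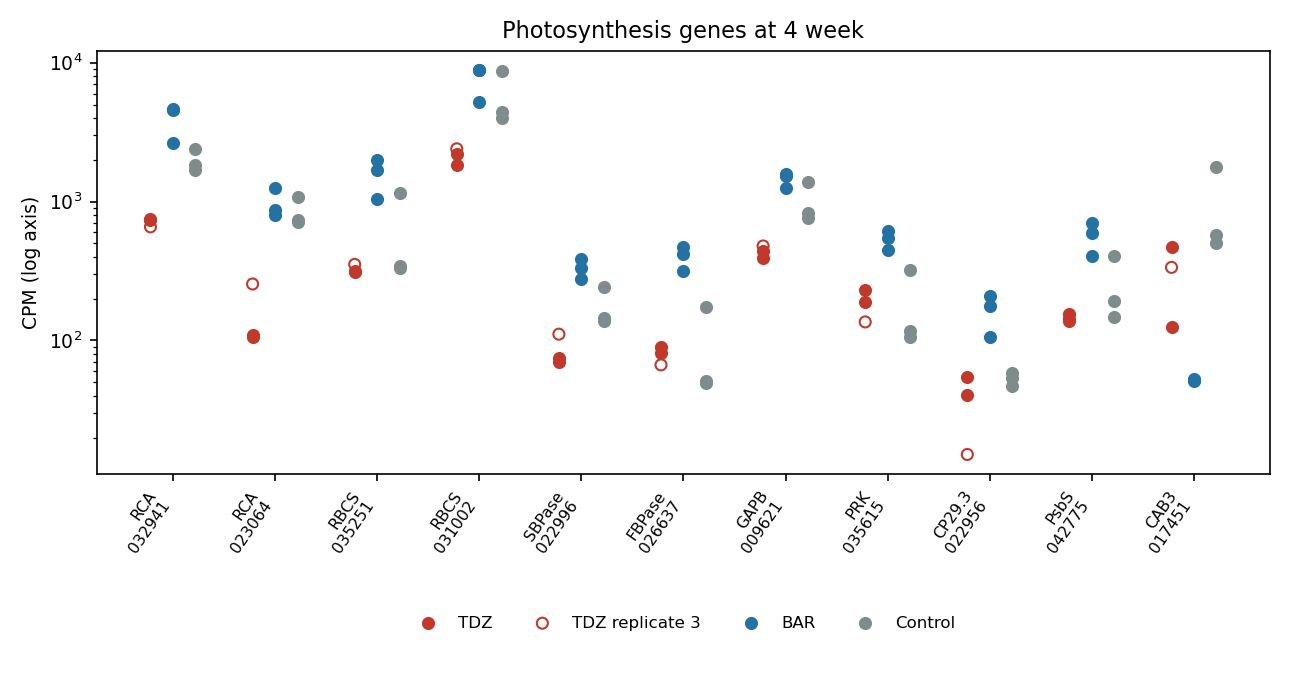
CPM on a log axis of 11 photosynthesis genes in each library of 4 week, coloured as in the plot of cytokinin genes (RCA, Rubisco activase; RBCS, Rubisco small subunit; SBPase and FBPase, sedoheptulose- and fructose-bisphosphatase; GAPB, glyceraldehyde-3-phosphate dehydrogenase B; PRK, phosphoribulokinase; PsbS, photosystem II 22 kDa protein; CAB3, chlorophyll a-b binding protein 3). All TDZ libraries, the open circle included, lie below all BAR libraries except for CAB3, where they lie above.

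Among the genes with the largest differences below in the 6 libraries, most were high on BAR and low on both other media. Beta-glucosidase 12 (DVH24_038480) had 13.3, 19.6 and 12.6 CPM on TDZ, 268, 134 and 263 CPM on BAR and 27.9 to 55.8 CPM in the controls. Its log2 difference was -3.87 ± 0.49 (adjusted p = 0.001, edgeR, 6 libraries) and -3.75 ± 0.56 (adjusted p = 0.0003, 5 libraries). A GDSL esterase (DVH24_003341) had 0.95, 2.18 and 1.22 CPM on TDZ and 74.7, 9.77 and 26.6 CPM on BAR (log2 difference -4.66 ± 0.62, adjusted p = 0.0016, 6 libraries). Allene oxide cyclase (DVH24_032139), an enzyme of jasmonate synthesis, had 0, 1.13 and 0.644 CPM on TDZ and 34.3, 6.88 and 5.1 CPM on BAR. In all 3 genes the groups did not overlap, which the rule for picking them required. Ethylene-response factor C3 (DVH24_036811) had 0, 0.042 and 0 CPM on TDZ and 18.2, 1.22 and 4.3 CPM on BAR (adjusted p = 0.018 and 0.016 by edgeR in the 6 and 5 libraries). The 8 lowest genes of the 6 libraries also held MIZU-KUSSEI 1 (DVH24_020786), an MLP-like protein 31 (DVH24_005733), an exonuclease 1 (DVH24_011358) and an isoprenylated metal-binding protein (DVH24_014361), with 0.0644 to 4.37 CPM on TDZ and 15.9 to 34.3 CPM on BAR. CONSTANS-LIKE 6 (DVH24_023582), a zinc finger protein, had 3.48, 4.87 and 12.1 CPM on TDZ and 75.6, 52.1 and 63.2 CPM on BAR (log2 difference -3.23 ± 0.55, adjusted p = 0.0051, edgeR, 6 libraries). The light receptors phytochrome E (DVH24_011341) and cryptochrome 1 (DVH24_016811) were lower as well, at 1.61 to 6.42 CPM against 22.4 to 33.7 CPM and at 68.5 to 87.9 CPM against 175 to 177 CPM. Of 49 clock and light receptor genes only 4 were lower and 1 higher in the 5 libraries (8.16% lower, against 6.97% of all genes). Of 48 in the 6 libraries 3 were lower and 1 higher (6.25% lower, against 3.98%). The 3 became 1 without BAR replicate 1.

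Ethylene-response factor C3 was also among the 8 lowest genes of the 5 libraries. The other 7 were low in TDZ replicates 1 and 2 and higher in the library labelled TDZ replicate 3. SWEET15 (DVH24_041082), a sugar transporter known from senescing leaves and seeds of Arabidopsis, had 0.181, 0.084 and 560 CPM on TDZ, 3.9, 13.1 and 2.2 CPM on BAR and 315 to 969 CPM in the controls. It was lower on TDZ without replicate 3 (log2 difference -5.54, adjusted p = 0.014, edgeR) and was not called with it (4.86, adjusted p = 0.14). Expansin-like B1 (DVH24_001135) had 0.904, 0.168 and 46.1 CPM on TDZ and 14.7, 28.7 and 31.3 CPM on BAR, and ECERIFERUM 2 (DVH24_016688), a wax gene, 0.0904, 0.168 and 25.4 CPM and 3.79, 9.88 and 1.99 CPM. Their controls were not low, at 26.7 to 41.8 CPM and 26 to 54.8 CPM. Sugar transport protein 7 (DVH24_017647), a pectinesterase (DVH24_007574), the esterase EXL3 (DVH24_020093) and a metal-binding protein (DVH24_033973) shared this pattern. They had at most 0.497 CPM in TDZ replicates 1 and 2, 3.8 to 9.53 CPM in replicate 3 and 1.27 to 21.5 CPM in the controls. None of these 7 genes was called with replicate 3 included.

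Among the highest genes of the 6 libraries, several were high in replicate 3. Acidic endochitinase (DVH24_022468) had 16.5, 7.43 and 5170 CPM on TDZ, 0.583, 4.94 and 5.96 CPM on BAR and 1300 to 1580 CPM in the controls. Its 6-library log2 difference of 8.81 ± 2.05 (adjusted p = 0.018, edgeR) was 1.63 ± 0.84 (adjusted p = 0.22) in the 5 libraries. A Kunitz trypsin inhibitor (DVH24_002949) had 4.07, 2.86 and 1630 CPM on TDZ, a glucan endo-1,3-beta-glucosidase (DVH24_000808) 8.95, 13.2 and 1320 CPM, the dioxygenase AOP1 (DVH24_041624) 0.995, 5.63 and 208 CPM, and MYB123 (DVH24_012696) 0.543, 0.42 and 42.4 CPM, all with at most 2.78 CPM on BAR. The level in replicate 3 set the mean of the group for these 5 genes, and of them the glucosidase and MYB123 were also called in the 5 libraries (adjusted p = 0.0021 and 0.04). As the rule for these picks required, aquaporin TIP1-3 (DVH24_038718) and serine carboxypeptidase-like 31 (DVH24_011577) were above BAR in all 3 TDZ libraries. They had 19.9, 6.59 and 9.59 CPM and 1.67, 3.65 and 10.2 CPM on TDZ, and 1 and 0 counts in the whole BAR group. Their controls had 2.51 to 4.85 CPM and 1.21 to 2.18 CPM. One gene was called in opposite directions, an esterase (DVH24_042771) with 2.8, 5.08 and 428 CPM on TDZ, 11, 6.33 and 6.87 CPM on BAR and 303 to 405 CPM in the controls.

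Several of the highest genes of the 5 libraries had no count on BAR. A palmitoyl-monogalactosyldiacylglycerol desaturase gene (DVH24_032387), of an enzyme that makes unsaturated plastid lipids, had 24.1, 15.6 and 0 CPM on TDZ and no count on BAR or control. It was at least 355-fold higher on TDZ replicates 1 and 2 than 3 counts over the BAR group (adjusted p = 1.9e-06, edgeR). An ACC oxidase 1 gene (DVH24_029428), of the last step of ethylene synthesis, was at least 152-fold higher, UGT73B4 (DVH24_012269), a glycosyltransferase, at least 150-fold, and RITF1 (DVH24_022058), a transcription factor of root meristem signalling in Arabidopsis, at least 116-fold. Basic leucine zipper 43 (DVH24_032090), at 3.03, 15.4 and 0.193 CPM on TDZ, was at least 165-fold higher. None of them had a count on BAR, and in the library labelled TDZ replicate 3 they had at most 0.193 CPM.

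Lists of secondary wall, defence, peroxidase, pectin and GDSL genes had larger shares of higher calls than all genes. Of 126 secondary wall and lignin genes 35 were higher and 2 lower in the 5 libraries (27.8%), and of 121 tested with 6 libraries 29 were higher and 1 lower (24%). Caffeic acid 3-O-methyltransferase 1 (DVH24_005384), of lignin synthesis, had 34.9, 31.2 and 0.0644 CPM on TDZ and 1.63, 2.83 and 0.752 CPM on BAR. Of 132 defence proteins 37 were higher and 2 lower in the 5 libraries (28%), with glucan endo-1,3-beta-glucosidase 7 (DVH24_004091) at 31.9, 25.8 and 0 CPM on TDZ and 0.233, 1.17 and 0.806 CPM on BAR, and 22 of 131 were higher with 6 libraries (16.8%), including the endochitinase above whose level came from replicate 3. Peroxidase 12 (DVH24_009297) was high in every TDZ library, at 319, 188 and 138 CPM against 55.3, 65.9 and 46.5 CPM on BAR (log2 difference 1.94 ± 0.33, adjusted p = 0.0048, edgeR, 6 libraries), in a class of which 12 of 57 and 8 of 56 were higher. Pectin remodelling genes gave 26 of 129 and 11 of 124 higher, and GDSL esterases 23 of 72 and 9 of 68, with 4 and 2 lower. Another wall list, expansins and xyloglucan endotransglucosylases, went both ways, with 12 of 59 higher and 8 lower in the 5 libraries (20.3% and 13.6%, median log2 difference -0.04) and 6 of 56 higher and 1 lower in the 6. Its 12 became 6 without TDZ replicate 1, and 8 without BAR replicate 1 or TDZ replicate 2. Of flavonoid and phloridzin genes 8 of 65 were higher and 3 lower in the 5 libraries (12.3% higher) and 4 of 62 and 3 in the 6 (6.45%). The 8 became 1 without TDZ replicate 1 and 2 without BAR replicate 1 or 3, and the 4 became 0 without either of these BAR libraries. Of terpene genes 8 of 52 were higher in the 5 libraries and 4 of 46 in the 6, and none was lower. These became 3 and 0 without BAR replicate 1, and 4 and 0 without TDZ replicate 1. Without TDZ replicate 1 the 5-library counts were 10 for secondary wall, 25 for defence, 7 for peroxidases, 16 for pectin and 15 for GDSL genes, and without BAR replicate 1 the 6-library counts were 2, 4, 2, 0 and 1. The 6-library counts were 7, 5, 2, 1 and 1 without BAR replicate 3, 20, 9, 5, 7 and 5 without BAR replicate 2, and 14, 16, 6, 5 and 2 without TDZ replicate 1. Without TDZ replicate 2 those of pectin and GDSL genes were 7 and 5. Secondary wall and peroxidase counts in the 5 libraries were 20 and 8 without BAR replicate 1, and pectin counts 17 there.

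Genes of cyanogenic glycoside metabolism, the cyanide-releasing defence compounds known from rosaceous plants, were few but mostly higher. Of 13 tested 7 were higher and 1 lower in the 5 libraries (53.8% higher, median log2 difference 3.92) and 8 were higher in the 6 (61.5%, median 4.67). A mandelonitrile lyase 3 gene (DVH24_002314) had 25.6, 52.2 and 0 CPM on TDZ and 0.233, 0.111 and 0 CPM on BAR, and a mandelonitrile beta-glucosyltransferase (DVH24_042547) 30.6, 25.1 and 0.193 CPM and 0.0583, 0 and 0.107 CPM. Mandelonitrile lyase 2 (DVH24_032876) was high in all 3 TDZ libraries, at 286, 122 and 267 CPM against 0.874, 11.5 and 17.3 CPM on BAR (adjusted p = 0.023, edgeR, 6 libraries). The 5-library count was 4 without TDZ replicate 1, and the 6-library count 1, 2, 5 and 5 without BAR replicate 1, BAR replicate 3, BAR replicate 2 and TDZ replicate 1. Of 29 aquaporins 11 were higher and none lower in the 5 libraries (37.9%) and 4 of 28 in the 6 (14.3%), with PIP2-5 (DVH24_023955) at 351, 287 and 224 CPM on TDZ and 62.3, 115 and 83.6 CPM on BAR. That count was 5 without TDZ replicate 1, BAR replicate 1 or BAR replicate 3, 6 without TDZ replicate 2, and in the 6 libraries 1 without BAR replicate 1 and 2 without BAR replicate 3 or TDZ replicate 1. Vacuolar acid invertase (DVH24_022728), which splits sucrose, had 29.9, 22.6 and 37.2 CPM on TDZ and 1.34, 4.22 and 2.26 CPM on BAR, without overlap (log2 difference 3.52 ± 0.48, adjusted p = 0.0018, edgeR, 6 libraries). Its controls, at 22.9 to 98.3 CPM, were on the TDZ side, so this gene was low on BAR alone. Of 104 sugar genes 12 were higher and 13 lower in the 5 libraries (against 8.47% and 6.97% of all genes). Of 102 in the 6 libraries 6 were higher and 4 lower. The 13 became 3 without TDZ replicate 1 and 8 without BAR replicate 3, the 12 became 8 without TDZ replicate 1, and without BAR replicate 1 the 6-library counts were 2 and 0.

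**Figure D5:**
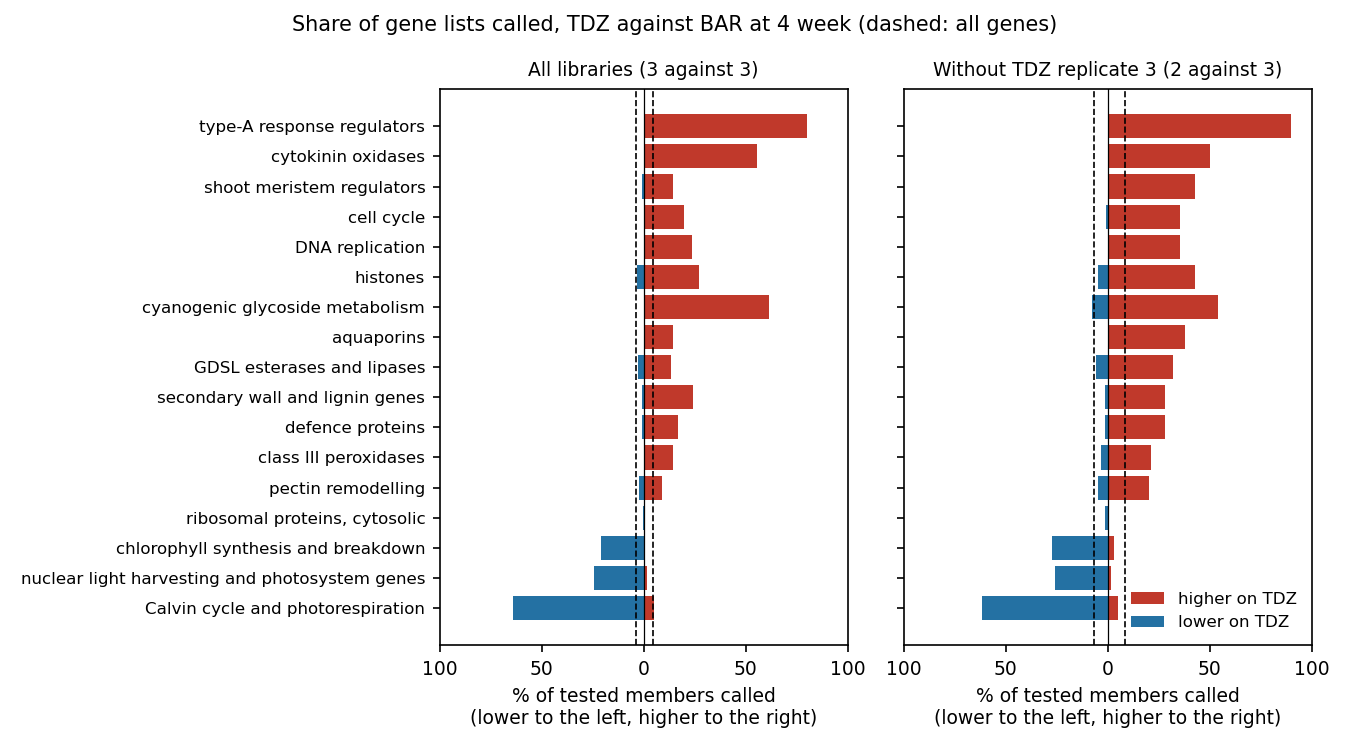
Share of tested members called higher (red, to the right) or lower (blue, to the left) on TDZ than on BAR in 17 gene lists, with 6 libraries on the left and 5 on the right, and the share of all genes as dashed lines. Type-A response regulators reach 90% higher in the 5 libraries, and Calvin cycle genes 64.1% lower in the 6.

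In the 5 libraries the other hormone lists had calls in both directions, except for the Aux/IAA auxin repressors. Of these 2 of 34 were lower and none higher in the 5 libraries (5.88% against 6.97% of all genes) and 1 of 33 was lower in the 6, with AUX28 (DVH24_010679) at 27.6, 29.2 and 3.15 CPM on TDZ and 104, 73.9 and 93.6 CPM on BAR. The 2 became 0 without BAR replicate 1, TDZ replicate 1 or TDZ replicate 2. For the lists that follow, the shares over all genes were 8.47% higher and 6.97% lower in the 5 libraries, and 4.42% and 3.98% in the 6. Genes of auxin synthesis and transport gave 10 of 41 higher and 6 lower in the 5 libraries (24.4% and 14.6%), and in the 6 libraries 3 of 40 higher and 4 lower, both 0 without BAR replicate 1 or 3. Without TDZ replicate 1 the 6 lower genes of the 5 libraries became 2. An auxin influx carrier (DVH24_034519) had 21.7, 19.7 and 0.129 CPM on TDZ and 2.04, 2.55 and 1.66 CPM on BAR (adjusted p = 9.2e-05 and 0.068 by edgeR in the 5 and 6 libraries). Gibberellin genes gave 8 of 44 higher and 4 lower in the 5 libraries (18.2% and 9.09%) and 2 of 43 and 3 in the 6. Without TDZ replicate 1 the 5-library counts were 2 and 0, and the 6-library counts were 0 without BAR replicate 1, BAR replicate 3 or TDZ replicate 1. Among them was Gibberellin-regulated protein 6 (DVH24_037114) at 48.9, 70.5 and 1.09 CPM on TDZ and 4.02, 6.77 and 4.03 CPM on BAR. Ethylene genes gave 7 of 120 higher and 10 lower in the 5 libraries (5.83% and 8.33%) and 8 of 115 and 6 in the 6. The 10 became 1 without TDZ replicate 1, 2 without TDZ replicate 2 and 5 without BAR replicate 1, and the 7 became 3 without TDZ replicate 1, while the 6-library counts were 0 and 1 without BAR replicate 1. Abscisic acid genes gave 5 of 62 in each direction in the 5 libraries (8.06%), 1 in each without TDZ replicate 1, and 2 and 3 of 61 in the 6, both 0 without BAR replicate 1. An ACC oxidase (DVH24_016918) had 65.2, 95.1 and 0.386 CPM on TDZ and 0.466, 1.44 and 0.322 CPM on BAR, while ERF117 (DVH24_023583), an ethylene-response factor, was lower in all 3 TDZ libraries, at 1.85, 4.37 and 6.05 CPM against 29.7, 18.8 and 14.6 CPM. Of 64 jasmonate genes 9 were lower and 4 higher in the 5 libraries (14.1% and 6.25%), and 8 of 63 lower and 3 higher in the 6. The 9 became 2 without TDZ replicate 1 and 5 without TDZ replicate 2 or BAR replicate 1, and the 8 became 2 without BAR replicate 1 and 5 without BAR replicate 3. Lipoxygenase 2-1 (DVH24_016200), of jasmonate synthesis, had 24.5, 21.2 and 40.4 CPM on TDZ and 126, 115 and 77.2 CPM on BAR (log2 difference -1.89 ± 0.31, adjusted p = 0.0043, edgeR, 6 libraries). The strigolactone receptor gene RMS3 (DVH24_012546), named after a pea gene that restrains branching, had 85.7, 44.7 and 13.8 CPM on TDZ and 11.2, 17.2 and 9.83 CPM on BAR (adjusted p = 0.00053 in the 5 and 0.027 in the 6 libraries by edgeR). Its controls, at 26.4 to 66.9 CPM, were above BAR as well.

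Few genes were called between the media at 48 hour. With all libraries in the fit edgeR called 0 genes there (0.0%), 1970 had an unadjusted p under 0.05, and DESeq2 called 151 and limma-voom 0. Without the library labelled TDZ replicate 3 of 4 week the numbers were 5, 2885, 487 and 3, the 5 of edgeR (0.0188%) being 1 higher (0.00375%) and 4 lower (0.015%). The test of the difference between times called 2670 genes without that library (10%), 1624 upward (6.1%) and 1046 downward (3.93%), and 619 with it (2.38%), 336 upward (1.29%) and 283 downward (1.09%). CKX3 (DVH24_029452) had 189 to 431 CPM on TDZ and 24.6 to 45.1 CPM on BAR at 48 hour, so BAR had already been below TDZ but far above its own level of 4 week, and the log2 difference grew by 8.02 ± 1.03 (adjusted p = 0.00038, edgeR, 5 libraries at 4 week). ARR6 (DVH24_008781) had 79.8 to 94 CPM on TDZ and 63.6 to 88.8 CPM on BAR at 48 hour, and its difference grew by 3.51 ± 0.44 (adjusted p = 0.00019). With replicate 3 kept, neither growth passed (adjusted p = 0.087 and 0.18). Cyclin-A1-1 (DVH24_042818) had 29.1 to 41.1 CPM on TDZ and 24.1 to 37.1 CPM on BAR at 48 hour. Of the type-A regulators 9 of 10, of the meristem genes 29 of 96 and of the cell cycle genes 25 of 88 were called upward in that test without the doubted library. With it the counts were 0 of 10, 5 of 92 and 3 of 87.

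Rubisco activase (DVH24_032941) had 1830 to 2620 CPM on TDZ and 1560 to 3260 CPM on BAR at 48 hour, with overlap, and its log2 difference changed by -2.15 ± 0.48 (adjusted p = 0.01, edgeR, 5 libraries at 4 week) and passed with 6 libraries too (adjusted p = 0.032). Sedoheptulose-1,7-bisphosphatase (DVH24_022996) had 115 to 179 CPM on TDZ and 82 to 188 CPM on BAR at 48 hour, and its difference changed by -2.28 ± 0.47 (adjusted p = 0.0059, and 0.036 with 6 libraries). Of the 39 Calvin cycle genes 11 changed in that direction without the doubted library and 4 with it.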

How the data were processed

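Poly(A) RNA was sequenced. The authors deposited raw counts, whole numbers for every gene, made with CASAVA, HISAT2 2.0.5 and featureCounts 1.5.0-p3 per the submitters' processing notes. The build and the use of strand are not stated in the sources at hand, so overlapping genes, antisense genes and close paralogs are uncertain, and no positions or sequences are printed. The deposited FPKM table was not used. Names come from the Swiss-Prot matches of the deposited table (27453 of 42841 genes), and show a protein family rather than a proven ortholog.

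Groups came from the labels alone. edgeR 4.0.16 in R 4.3.3 (quasi-likelihood test after TMM scaling) was run on all 18 libraries as 6 groups, and on the 17 without the library labelled TDZ replicate 3 of 4 week. Genes passed filterByExpr at a minimum count of 10 and a minimum total of 15. CPM values are scaled by TMM. Errors are SE and intervals 95%, over the samples in the fit. A fold against a group at 0 is a bound computed from 3 counts over that group. Members and the 50 gene lists, drawn from protein names, were chosen with earlier results of these data known.

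Named genes had at least 5 CPM in the higher group and a characterised name. They were the 8 highest and 8 lowest calls with groups that do not overlap in each comparison, the 2 smallest p per list, the 3 most abundant type-A regulators and oxidases, and the 4 highest and 4 lowest changes over time. Other genes were named after their values were seen. Alternatives were DESeq2 1.42.0, limma-voom (limma 3.58.1), RLE scaling, no filter, a 2-fold threshold, fewer libraries in the fit, each library left out, summed libraries of like name and a replicate block. The letter b in some library names is not explained in the labels. The scripts were tested on simulated data.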

Additional observations from a re-analysis of the deposited data

Results flagged for a closer look

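The difference between TDZ and BAR at 4 week was not the same as at 48 hour for 2670 genes without the library labelled TDZ replicate 3 of 4 week and for 619 genes with it, by the edgeR test of the difference between times. The count of 619 was 1296 without control replicate 1 of 4 week, 27 and 58 without BAR replicate 1 or 3, and 263 without TDZ replicate 1. That of 2670 was 4112 without control replicate 1, 1171 and 1440 without TDZ replicate 1 or 2, and 1543 and 1744 without BAR replicate 1 or 3. The 8 genes below were picked by the size of that change without the doubted library. An ACC oxidase 1 gene (DVH24_029428, adjusted p = 0.00038) had 5.81 to 23.1 CPM on BAR and at most 0.672 CPM on TDZ at 48 hour, but 11.2 and 5.75 CPM on TDZ replicates 1 and 2 and no count on BAR at 4 week. Basic leucine zipper 43 (DVH24_032090, adjusted p = 0.0041), a pectinesterase 28 gene (DVH24_036545, adjusted p = 0.0028) and the knotted-1-like gene LET6 (DVH24_011759, adjusted p = 0.0082) had the same order of group means. They had at most 4.33, 11.5 and 11.6 CPM on BAR at 48 hour, and at 4 week at least 3.03, 6.87 and 10.3 CPM in TDZ replicates 1 and 2 and at most 0.0537 CPM on BAR. At 48 hour BAR and TDZ overlapped for basic leucine zipper 43 (from 0.0631 CPM on BAR, up to 0.183 on TDZ) and LET6 (from 1.33, up to 4.34). The 48 hour difference was not called for ACC oxidase 1, basic leucine zipper 43 or LET6 (adjusted p = 0.091, 0.29 and 0.57, edgeR, without the doubted library). In the other direction stood Sugar transport protein 7 (DVH24_017647, adjusted p = 0.012), the esterase EXL3 (DVH24_020093, adjusted p = 0.015), a chaperonin-like RBCX protein 1 of Rubisco assembly (DVH24_016934, adjusted p = 0.01) and a WAT1-related protein (DVH24_030638, adjusted p = 0.023). RBCX had 4.79 to 15.7 CPM on TDZ and 0.422 to 3.98 CPM on BAR at 48 hour, and 7.23, 6.8 and 1.61 CPM on TDZ and 76.5, 29.9 and 60.4 CPM on BAR at 4 week.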

How the results depend on the processing

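Counts are given as higher and lower on TDZ. With 6 libraries (1152 and 1037), DESeq2 gave 2337 and 1401, limma-voom 463 and 1258, limma-voom with sample quality weights 5305 and 5303, a 2-fold threshold 24 and 14, a fit of the 4 week libraries 62 and 94, and the 6 libraries fitted alone by edgeR 0 and 0 (4594 at an unadjusted p under 0.05). Summing the libraries whose names end in b with their namesakes gave 952 and 590. Leaving out 1 library gave 52 to 2257 higher and 146 to 1857 lower. With 5 libraries (2257 and 1857), quality weights gave 5354 and 5108, the 2-fold threshold 990 and 209, the 5 libraries alone 3879 and 3085, summing 1588 and 1116, and leaving out 1 library 1201 to 2994 and 456 to 2587. RLE scaling and no filter kept both counts within 1.5 times. For the change over time, with 619 genes in all, the alternatives gave 2314 (DESeq2), 391 (limma-voom), 9283 (quality weights), 38 (2-fold), 154 (TDZ and BAR libraries alone), 1296 (without control replicate 1) and 27 to 2670 (1 library left out). Without the doubted library, at 2670, they gave 9255 (quality weights), 875 (2-fold), 4112 (without control replicate 1), 1492 (summed) and 1171 to 4112 (1 library left out).

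Whether the replicate numbers pair the samples was not settled. Deviations of same-numbered TDZ and BAR libraries from their group means correlated at -0.0582, -0.14 and -0.102. The TDZ mean included the doubted library, which dominates these deviations, so the check could not show a pairing. With the replicate block the counts were 425 and 685 with 6 libraries and 1486 and 1284 with 5, and 98 and 1470 for the change over time. Among named genes, 6 of 2384 values with 6 libraries changed sign with a call in the main or the alternative fit, and 542 lost their call. Changes of sign without a call in either fit were not counted. NRT1/PTR 7.3 (DVH24_013795) turned to -2.3 without the doubted library (1.41 at most with 1 library left out) and -1.76 with quality weights, ECERIFERUM 2 (DVH24_016688) to -5.25 and -4.45, and SWEET15 (DVH24_041082) to -5.54 (5.93 at most) and -4.36. With 5 libraries none of 2302 values turned in this sense and 121 lost their call. The causes were not tested. Quality weights and leaving out control replicate 1 were chosen after seeing the data. A group of 2 TDZ libraries limits the 5-library comparison, and genes under about 1 CPM rest on few counts.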
